A study of Mus musculus with 7 samples.

Results

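The level of 10 imprinted growth genes was followed in fibroblasts sorted from the hearts of young mice. The genes were H19, Igf2, Dlk1, Mest, Peg3, Plagl1, Cdkn1c, Grb10, Igf2r and Ndn. They were taken by symbol from a table of raw read counts over 54735 gene symbols, and all 10 were among the 17636 genes with enough counts to be tested. Cells carried the tamoxifen-inducible recombinase MerCreMer (MCM) under the control of either Tcf21, a transcription factor gene of resident cardiac fibroblasts, or Postn, which encodes the matrix protein periostin. In all animals MCM switched on an eGFP reporter at the Rosa26 locus (R26eGFP), and GFP-positive cells were collected by flow sorting for bulk RNA sequencing. Tcf21 P30 comprised 3 libraries of Tcf21MCM;R26eGFP cells from mice aged 30 days. Postn P7 comprised 2 libraries of PostnMCM;R26eGFP cells from mice aged 7 days, and Tcf21 P7 comprised 2 libraries of Tcf21MCM;R26eGFP cells, also from mice aged 7 days. Male and female animals were pooled in every group. A Postn-traced group at 30 days was not analysed here, so an effect of age could be measured in the Tcf21 line only. The labels give neither the times of tamoxifen dosing nor the number of animals per library, and p-values therefore measure the spread between these libraries, which may be technical.

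Imprinted genes are expressed mainly from the allele of one parent, and the choice is set by DNA methylation laid down in the germ line. Many of them act on growth before and shortly after birth: paternally expressed members of the group tend to promote growth, and maternally expressed members tend to restrain it. Igf2, Dlk1, Mest, Peg3, Plagl1 and Ndn are expressed from the paternal allele in the mouse. H19, Cdkn1c and Igf2r are expressed from the maternal allele, as is Grb10 outside the nervous system. In several mouse organs the levels of many of these genes are known to decline as growth slows after birth. Counts per gene do not separate the alleles, so nothing in these data bears on imprinting itself.

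The libraries held 15207835 to 18519528 counts. Levels are given as normalised CPM, read counts scaled to a common total with edgeR's TMM factors (CPM), and a gene is called lower or higher where its adjusted p in edgeR's quasi-likelihood test was below 0.05. Fibroblast identity markers were abundant in every library, with a summed level of 40600, 50900 and 47000 CPM in Tcf21 P30, 37900 and 46400 CPM in Postn P7 and 51700 in each library of Tcf21 P7. Single markers moved in both directions. Of 13 tested, 4 were called lower in Tcf21 P30 than in Tcf21 P7, among them Mfap4, Col1a1 and Col3a1. Another 3 were called higher, among them Gsn. Over all tested genes 15.0% were called lower and 16.7% higher. Endothelial markers stood at 5270 CPM in Tcf21 P30 replicate 1 and at 1380 to 2170 CPM in the other libraries. Macrophage markers summed to 431 to 644 CPM in Tcf21 P30 and to 369 and 502 CPM in Postn P7, against 1260 CPM in both Tcf21 P7 libraries. Replicates differed by more than counting noise in each group, and the closest pair was Tcf21 P7.

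The loci of H19, Igf2 and Mest hold microRNAs, shown because their host transcripts were among the most lowered at 30 days: of 17636 tested genes, 5, 55 and 58 had a lower log2 change of Tcf21 P30 against Tcf21 P7. The sequences are RefSeq's mature forms on GRCm38.p6, written 5′ to 3′, with the seed (bases 2 to 8) in capitals. The pair of miR-675 lies within an exon of H19 on the minus strand of chromosome 7, the pair of miR-483 within an intron of Igf2 on the same strand, and the pair of miR-335 within an intron of Mest on the plus strand of chromosome 6.
mmu-miR-675-5p: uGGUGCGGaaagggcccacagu
mmu-miR-675-3p: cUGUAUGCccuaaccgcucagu
mmu-miR-483-5p: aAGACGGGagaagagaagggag
mmu-miR-483-3p: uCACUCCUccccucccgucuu
mmu-miR-335-5p: uCAAGAGCaauaacgaaaaaugu
mmu-miR-335-3p: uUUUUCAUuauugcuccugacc
The 6 mature forms carry 6 distinct seeds. Their own entries in the count table held 0 reads for Mir675, 0 for Mir483 and 3 for Mir335 over all 7 libraries, so only the host transcripts were measured.

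At 30 days every one of the 10 genes was lower in Tcf21-traced cells than at 7 days. The range was wide: H19 and Dlk1 were 128-fold and 122-fold lower, whereas Igf2r and Ndn stood at 51.2% and 64.3% of their 7-day level. All 10 were called lower and 0 higher, where 15.0% of all tested genes were called lower and 16.7% higher. When the change was tested against 2-fold rather than against 0, 7 of the 10 genes were called lower (H19, Igf2, Dlk1, Mest, Peg3, Plagl1 and Grb10) and 0 higher, where 2.30% of all tested genes were called lower and 2.68% higher. The libraries of the groups overlapped for none of the 10 genes, and 29.9% of all tested genes were lower without overlap. The median log2 change was −2.42 over the 10 genes and 0.03 over all tested genes. These genes were chosen with earlier results of these libraries known, so the counts describe them and do not test them as a list. In bulk libraries, fewer cells of a type and less RNA per cell cannot be told apart.

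At 7 days the 10 genes differed less between the lines. In Postn-traced cells H19 and Dlk1 were called lower than in Tcf21-traced cells and no member was called higher, against 5.49% and 6.52% of all tested genes. None of the 10 was called against 2-fold, where 0.0454% of all tested genes were called lower. The log2 change was below 0 for 9 of the 10 genes and for 49.8% of all tested genes, with a median of −0.55 over the 10 genes and 0 over all. For the same 9 genes, all but Peg3, both Postn P7 libraries lay below both Tcf21 P7 libraries, as did those of 32.5% of all tested genes, and 31.4% were higher without overlap.

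In Tcf21 P30 against Postn P7, where age and line differ together, 8 of the 10 genes were called lower, all but Cdkn1c and Ndn, where 11.7% of all tested genes were. Of these, 6 were called against 2-fold, where 2.46% of all tested genes were called lower and 2.10% higher. The libraries did not overlap for 9 of the 10 genes, all lower in Tcf21 P30, and 24.7% of all tested genes were lower without overlap. The 3 comparisons share libraries in pairs, so their values are set side by side and are not independent of each other. For 8 of the 10 genes the levels ran, with no overlap between neighbouring groups, from Tcf21 P30 at the bottom through Postn P7 to Tcf21 P7 at the top, and 863 genes (4.89% of those tested) had that order. The other members were Peg3, whose 7-day groups overlapped, and Ndn, whose Tcf21 P30 and Postn P7 libraries overlapped.

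**Figure D1:**
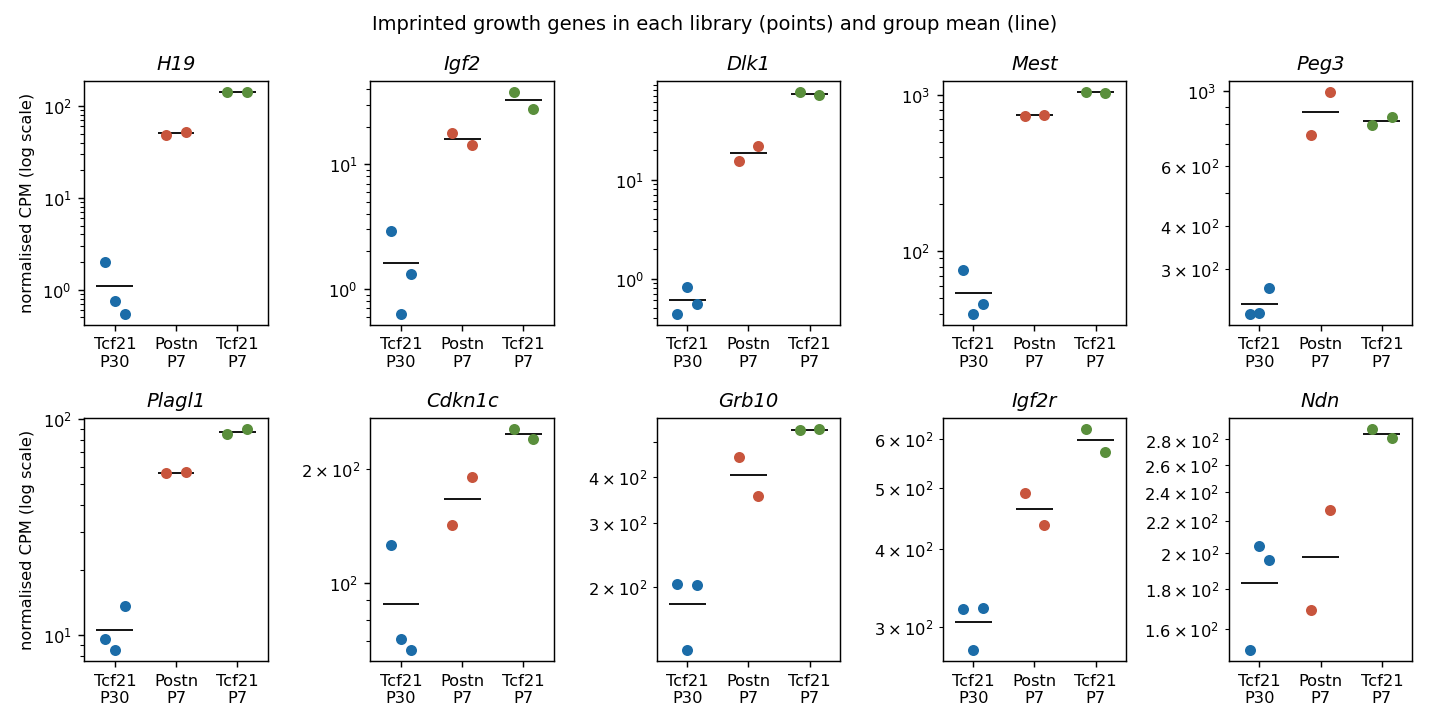
Normalised CPM (log scale) of each of the 10 genes in each library (points), with the group mean (line), for Tcf21 P30 (n = 3), Postn P7 (n = 2) and Tcf21 P7 (n = 2). H19 and Dlk1 span the widest range, with Tcf21 P30 libraries between 0.442 and 2.02 CPM and Tcf21 P7 libraries between 71.1 and 142 CPM, and Ndn the narrowest of the 10.

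**Figure D2:**
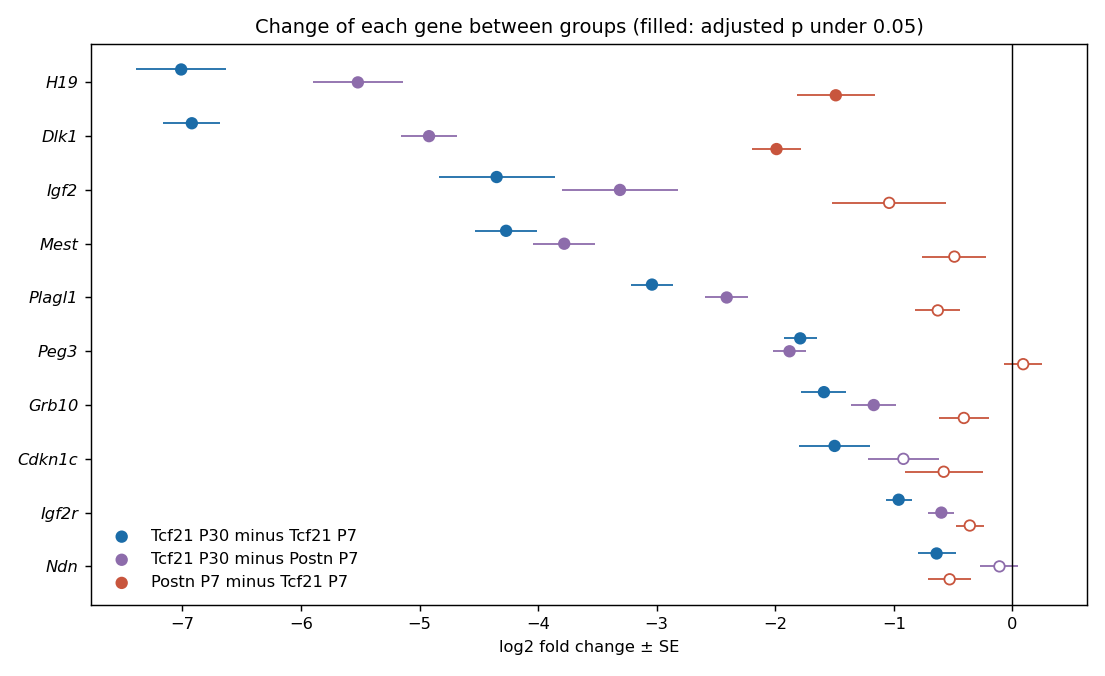
Log2 fold change with its SE (edgeR) for the 10 genes in the 3 comparisons, ordered by the change of Tcf21 P30 against Tcf21 P7, with filled points where the adjusted p was under 0.05. Tcf21 P30 lies below Tcf21 P7 for every gene, from −7.01 for H19 to −0.64 for Ndn, and points for Postn P7 minus Tcf21 P7 lie closer to 0.

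Igf2 encodes insulin-like growth factor 2, the main fetal growth ligand of the group. Its level was 2.9, 0.634 and 1.32 CPM in Tcf21 P30, from 46, 10 and 24 reads, against 17.7 and 14.3 CPM in Postn P7 and 37.9 and 28 CPM in Tcf21 P7. All 3 Tcf21 P30 libraries were below every 7-day library, and the highest Postn P7 library was below the lowest Tcf21 P7 library. The Tcf21 P30 mean of 1.62 ± 1.16 CPM (SD, n = 3) was 4.91% of the Tcf21 P7 mean of 33 ± 6.97 CPM (SD, n = 2), a log2 change of −4.35 ± 0.49 (SE, adjusted p = 0.0013 in edgeR's quasi-likelihood test). The Postn P7 mean of 16 ± 2.43 CPM was 48.5% of that of Tcf21 P7, and this difference was not called (log2 −1.04 ± 0.48, adjusted p = 0.2).

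H19 is a long non-coding RNA next to Igf2 on chromosome 7, expressed from the opposite allele and served in the mouse by the same enhancers. It had 2.02, 0.761 and 0.55 CPM in Tcf21 P30, from 32, 12 and 10 reads, then 48.9 and 52.1 CPM in Postn P7 and 142 and 141 CPM in Tcf21 P7. The 3 groups were separate, and replicates at 7 days differed little. The Tcf21 P30 mean of 1.11 ± 0.795 CPM was 0.783% of the Tcf21 P7 mean of 142 ± 0.46 CPM, 128-fold lower, with a log2 change of −7.01 ± 0.38 (adjusted p = 9.3e-05). Postn P7, at 50.5 ± 2.23 CPM, stood at 35.6% of Tcf21 P7 (log2 −1.49 ± 0.33, adjusted p = 0.038). That call held in 12 of 17 alternative settings. It was lost with the Tcf21 P7 libraries summed into 1 (log2 −1.49) and with any single 7-day library left out (log2 −1.55 to −1.45). The call was kept without Tcf21 P30 replicate 1, 2 or 3 (adjusted p = 0.000272, 0.037 and 0.0277). It was also kept with Tcf21 P30 replicate 1 and Postn P7 replicate 1 left out together (log2 −1.44). The ratio of H19 to Igf2 in normalised CPM was 0.696, 1.2 and 0.417 in Tcf21 P30. It was 2.76 and 3.65 in Postn P7 and 3.75 and 5.04 in Tcf21 P7. Each Tcf21 P30 library thus had a lower ratio than any 7-day library. The ratio is not corrected for length, and Igf2 has more exon bases (5723) than H19 (2460). Per kb of exon, mean H19 was above mean Igf2 in each group. The values were 0.451 and 0.283 CPM per kb in Tcf21 P30, 20.5 and 2.8 in Postn P7 and 57.6 and 5.76 in Tcf21 P7. The Tcf21 P30 ratios come from 10 to 46 reads per gene.

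Igf2r encodes the receptor that carries IGF2 to lysosomes for degradation. It stood at 320, 275 and 322 CPM in Tcf21 P30, at 491 and 436 CPM in Postn P7 and at 622 and 571 CPM in Tcf21 P7. The groups were separate, at a much smaller distance than those of Igf2. Tcf21 P30 had 51.2% of the Tcf21 P7 mean (log2 −0.96 ± 0.11, adjusted p = 0.00052), and Postn P7 differed from Tcf21 P7 by −0.36 ± 0.12 (adjusted p = 0.085). Grb10 encodes an adaptor that binds the insulin and IGF1 receptors and restrains their signalling. Its level was 203, 134 and 202 CPM in Tcf21 P30, 454 and 355 CPM in Postn P7 and 537 and 542 CPM in Tcf21 P7. Tcf21 P30 was again below every 7-day library, with a log2 change of −1.59 ± 0.19 against Tcf21 P7 (adjusted p = 0.00088) and of −1.17 ± 0.19 against Postn P7 (adjusted p = 0.0038).

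Dlk1 encodes a transmembrane protein related to Notch ligands that holds preadipocytes undifferentiated and is also known as preadipocyte factor. Tcf21 P30 libraries had 0.442, 0.824 and 0.55 CPM, from 7, 13 and 10 reads, Postn P7 libraries 15.4 and 21.7 CPM, and Tcf21 P7 libraries 76.4 and 71.1 CPM. The 3 groups were far apart, and no library came near those of another group. The Tcf21 P30 mean of 0.605 ± 0.197 CPM was 0.82% of the Tcf21 P7 mean of 73.8 ± 3.78 CPM, 122-fold lower (log2 −6.92 ± 0.24, adjusted p = 8.2e-06). The Postn P7 mean of 18.6 ± 4.47 CPM was 25.1% of that of Tcf21 P7 (log2 −1.99 ± 0.21, adjusted p = 0.0033). Of the 2 members called between the lines at 7 days, Dlk1 was the one called under all 17 alternative settings tried, with a highest adjusted p of 0.0392. Against 2-fold its adjusted p was 0.056.

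Cdkn1c encodes p57Kip2, an inhibitor of cyclin-dependent kinases that halts the cell cycle. It had 126, 71.1 and 66.3 CPM in Tcf21 P30, 142 and 191 CPM in Postn P7 and 256 and 241 CPM in Tcf21 P7. The highest Tcf21 P30 library lay just below the lower Postn P7 library. The change of Tcf21 P30 against Tcf21 P7 was −1.50 ± 0.30 (adjusted p = 0.013), and against Postn P7 it was not called (−0.92 ± 0.30, adjusted p = 0.075). The high Tcf21 P30 library was replicate 1, the one with 5270 CPM of endothelial markers. That library also had the highest sums of its group for markers of several other cell types. These were pericyte and smooth muscle (2220 CPM), cardiomyocyte (1330), macrophage (644), erythroid (621) and glia markers (68). Its sums of fibroblast and of epicardial markers were the lowest of the group. The part of any of these cells in the level of Cdkn1c was not tested. Without that library and Postn P7 replicate 1 the change against Tcf21 P7 was −1.85 (adjusted p = 8.45e-09). The call against Tcf21 P7 was lost when either Tcf21 P7 library was left out (adjusted p = 0.0609 and 0.0525), when both were summed into 1 (adjusted p = 0.0546) and with the replicate number as a block (log2 −1.35, adjusted p = 0.0514).

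Plagl1 encodes the zinc finger transcription factor Zac1, which regulates other imprinted genes in the mouse, and Peg3 encodes a large zinc finger protein. Plagl1 stood at 9.59, 8.5 and 13.7 CPM in Tcf21 P30, at 56.2 and 56.8 CPM in Postn P7 and at 84.8 and 90 CPM in Tcf21 P7. The groups were separate, with a change of −3.04 ± 0.18 for Tcf21 P30 against Tcf21 P7 (adjusted p = 4.6e-05), and Postn P7 differed from Tcf21 P7 by −0.63 ± 0.19 (adjusted p = 0.07). Peg3 had 221, 222 and 263 CPM in Tcf21 P30, 741 and 993 CPM in Postn P7 and 793 and 837 CPM in Tcf21 P7. Tcf21 P30 was well below both 7-day groups, at 28.9% of the Tcf21 P7 mean (log2 −1.79 ± 0.14, adjusted p = 0.00011). Between the 7-day groups Peg3 overlapped, with a log2 difference of 0.09 ± 0.16 (adjusted p = 0.74). It was the member with no order between the lines.

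Mest encodes an enzyme-like protein of the alpha/beta hydrolase fold whose loss reduces fetal growth in mice, and it was the most abundant of the 10 per length at 7 days. Its level was 75.9, 40 and 45.8 CPM in Tcf21 P30, 730 and 746 CPM in Postn P7 and 1040 and 1030 CPM in Tcf21 P7. Tcf21 P30 held 5.19% of the Tcf21 P7 mean (log2 −4.27 ± 0.26, adjusted p = 9.6e-05). Postn P7 was lower than Tcf21 P7 in both libraries by a difference that was not called (−0.49 ± 0.27, adjusted p = 0.27). Ndn encodes necdin, a protein of the MAGE family that restrains proliferation in neurons. It changed least, with 150, 204 and 196 CPM in Tcf21 P30, 169 and 227 CPM in Postn P7 and 289 and 281 CPM in Tcf21 P7. Both Tcf21 P30 and Postn P7 lay below Tcf21 P7, by −0.64 ± 0.16 (adjusted p = 0.02) and by −0.53 ± 0.18 (adjusted p = 0.092), and overlapped each other. The call of Ndn was lost without either Tcf21 P7 library (adjusted p = 0.126 and 0.11), without Tcf21 P30 replicate 3 (0.0515) and with the Tcf21 P7 libraries summed (0.112).

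Summed over the 10 genes, the level was 1110, 957 and 1110 CPM in Tcf21 P30, 2870 and 3090 CPM in Postn P7 and 3880 and 3840 CPM in Tcf21 P7. The make-up of this sum also differed between the ages. Mest made up 6.8%, 4.2% and 4.1% of it in Tcf21 P30, 25.5% and 24.1% in Postn P7 and 26.9% and 27% in Tcf21 P7. Peg3 did not follow this pattern: it made up 19.9% to 23.6% in Tcf21 P30, 25.9% and 32.1% in Postn P7 and 20.4% and 21.8% in Tcf21 P7. Divided by exon length, the mean levels at 30 days were highest for Ndn (49.6 CPM per kb), Cdkn1c (43.1) and Igf2r (32.8), and those in Tcf21 P7 were highest for Mest (264 CPM per kb), Cdkn1c (122) and Ndn (77.1).

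**Figure D3:**
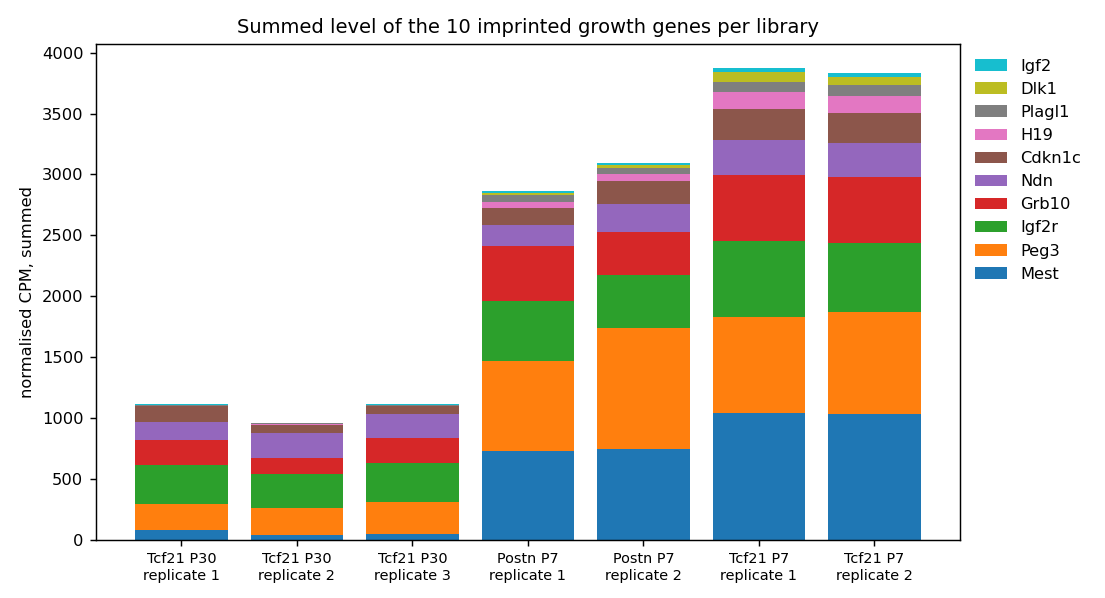
Normalised CPM of the 10 genes stacked per library, Tcf21 P30 at the left, then Postn P7 and Tcf21 P7. The stacks reach 957 to 1110 CPM in Tcf21 P30, 2870 and 3090 CPM in Postn P7 and 3840 and 3880 CPM in Tcf21 P7, and the Mest segment is thin at 30 days.

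The genes lie on 6 chromosomes of GRCm38 in the GENCODE annotation, and 5 of the 10 are on chromosome 7. Those are Peg3 (chr7:6703892-6730431, minus strand), Ndn (chr7:62346569-62350262, plus), H19 (chr7:142575529-142578143, minus), Igf2 (chr7:142650766-142666816, minus) and Cdkn1c (chr7:143458339-143461050, minus). The others are Mest (chr6:30723547-30748465, plus), Plagl1 (chr10:13060504-13131694, plus), Grb10 (chr11:11930508-12038683, minus), Dlk1 (chr12:109452823-109463336, plus) and Igf2r (chr17:12682406-12769664, minus). H19 is annotated as a lincRNA and the rest as protein-coding genes. Some exons are shared with other annotated genes, and the strand setting of the counting is not given in the sources used here. Of the exon bases of Cdkn1c, 30.7% lie opposite the antisense gene Gm44732, of those of Mest 23.1% lie opposite Copg2, and of those of Igf2 1.7% lie opposite Igf2os. Each of these partners was called lower at 30 days: log2 changes of Tcf21 P30 against Tcf21 P7 were −1.59 for Gm44732 (adjusted p = 0.015), −3.14 for Copg2 (adjusted p = 6.1e-05) and −3.56 for Igf2os (adjusted p = 0.028). The call of Igf2os held in 10 of 17 alternatives and that of Gm44732 in 14. Both were lost without either Tcf21 P7 library and with these summed, and that of Igf2os also with only the 2 groups compared and without either Postn P7 library or Tcf21 P30 replicate 2. Of the exon bases of H19, 2.9% lie opposite Gm27483 and 2.8% opposite Gm27786, entries with 994 and 395 reads in all libraries. Of those of Plagl1, 0.5% lie opposite Gm27741, with 24 reads. Without strand, reads from such pairs cannot be told apart. Igf2 also shares 62.8% of its exon bases with Gm49394 on its own strand, an entry with 12 reads in all libraries. How reads in shared exons were treated is not given in the sources used here, so the level of Igf2 is uncertain.

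Promoter windows of 250 bases before the transcription start are shown for 4 members that were called lower past 2-fold, as RefSeq gives them on GRCm38.p6. RefSeq's table held a window for 8 of the 10 genes, and H19 and Cdkn1c are named only. Where a gene had several, the window nearest most GENCODE transcript starts was used. The window of Ndn (chr7:62348027-62348276), counted below and not shown, lay inside the gene as GENCODE annotates it. Its RefSeq start was near no GENCODE transcript start. Capitals mark TGCCGC or its reverse complement GCGGCA, the core motif of the imprint-keeping zinc finger protein ZFP57. The windows are Mest chr6:30737800-30738049 (plus strand), Plagl1 chr10:13090582-13090831 (plus), Dlk1 chr12:109452573-109452822 (plus) and Igf2 chr7:142657497-142657746 (minus).
Mest: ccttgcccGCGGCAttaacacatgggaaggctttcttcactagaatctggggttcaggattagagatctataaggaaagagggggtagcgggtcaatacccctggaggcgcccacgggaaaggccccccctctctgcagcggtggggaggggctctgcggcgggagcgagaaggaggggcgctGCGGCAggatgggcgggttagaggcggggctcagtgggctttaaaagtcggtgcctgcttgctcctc
Plagl1: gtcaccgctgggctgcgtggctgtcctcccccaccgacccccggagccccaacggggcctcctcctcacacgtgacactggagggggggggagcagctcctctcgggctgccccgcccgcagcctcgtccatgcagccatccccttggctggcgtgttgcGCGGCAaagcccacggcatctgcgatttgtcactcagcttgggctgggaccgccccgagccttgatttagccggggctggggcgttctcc
Dlk1: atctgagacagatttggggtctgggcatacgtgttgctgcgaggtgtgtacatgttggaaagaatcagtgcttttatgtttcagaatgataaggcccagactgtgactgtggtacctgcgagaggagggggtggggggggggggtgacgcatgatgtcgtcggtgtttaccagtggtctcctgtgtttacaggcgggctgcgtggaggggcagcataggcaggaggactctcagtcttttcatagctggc
Igf2: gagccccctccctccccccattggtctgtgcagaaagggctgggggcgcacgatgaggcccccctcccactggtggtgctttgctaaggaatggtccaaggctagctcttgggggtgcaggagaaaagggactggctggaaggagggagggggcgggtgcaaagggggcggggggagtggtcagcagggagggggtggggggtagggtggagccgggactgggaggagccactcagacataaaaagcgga
The ZFP57 letters occurred 2 times in the Mest window and 1 time in that of Plagl1, hence in 2 of the 8 member windows, and in 8.68% of 32851 windows of the same length over all genes. The motif GCCATNTT of the factor YY1 was in 0 of the 8 windows and in 3.91% of all, and TATAAA, the TATA box, in 0 of the 8 and in 12.4% of all. Both strands were searched for each, and with 0 matches of the other motifs none overlapped in the member windows. The median GC content was 61.4% in the member windows and 52.4% in all, and the median ratio of observed to expected CpG was 0.475 and 0.373. Methylation was not measured in these samples.

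Other imprinted genes of the same clusters did not all move with the members. In the Cdkn1c cluster, Kcnq1ot1, the paternally expressed non-coding RNA that silences its neighbours, had 47.1, 28.8 and 37.1 CPM in Tcf21 P30, 38.9 and 40.5 CPM in Postn P7 and 4.15 and 6.46 CPM in Tcf21 P7. It was higher than Tcf21 P7 in both groups, by 2.83 (adjusted p = 0.00031) and by 2.90 (adjusted p = 0.003). Kcnq1ot1 lies inside Kcnq1 on the opposite strand. Without strand, its reads cannot be told apart from unspliced reads of Kcnq1. Of the other tested neighbours in that cluster, Kcnq1, Slc22a18, Osbpl5, Nap1l4 and Cd81 were not called against Tcf21 P7 in either group, and Tssc4 was lower at 30 days by a log2 change of −0.46 (adjusted p = 0.013). Malat1 and Neat1, nuclear non-coding RNAs outside the imprinted clusters, were looked up after the values of Kcnq1ot1 were seen. Malat1 had 1480, 1560 and 1410 CPM in Tcf21 P30, 1160 and 1370 CPM in Postn P7 and 354 and 341 CPM in Tcf21 P7, and Neat1 was higher than Tcf21 P7 by 2.82 in Tcf21 P30 (adjusted p = 3e-05) and by 1.60 in Postn P7 (adjusted p = 0.0024). The part of nuclear RNA content in the level of Kcnq1ot1 was not tested.

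In the Dlk1 cluster, Meg3, the maternally expressed non-coding RNA of the locus, had 10.3, 23.4 and 16.9 CPM in Tcf21 P30, 18.1 and 37.5 CPM in Postn P7 and 5.91 and 7.56 CPM in Tcf21 P7. Every library of both groups was above those of Tcf21 P7, where Dlk1 was below. Meg3 was called higher in Postn P7 (log2 2.04, adjusted p = 0.045), a call that held in 10 of 17 alternatives, and not in Tcf21 P30 (1.32, adjusted p = 0.067). The call of Meg3 was lost with upper-quartile scaling, with limma-voom, with the Tcf21 P7 libraries summed, and without Postn P7 replicate 2, either Tcf21 P7 library or Tcf21 P30 replicate 3. Rian, Mirg and Dio3 were not called against Tcf21 P7 in either group. Next to Igf2r, the paternally expressed antisense RNA Airn stood at 20.7, 16.9 and 18.2 CPM in Tcf21 P30, 32.1 and 30.7 CPM in Postn P7 and 19.9 and 19.6 CPM in Tcf21 P7. Airn was higher in Postn P7 than in Tcf21 P7 (0.67, adjusted p = 0.023, called in 12 of 17 alternatives) and not called between the ages (−0.09, adjusted p = 0.63). Slc22a3, a transporter gene beside Igf2r, had 0, 8 and 1 reads in Tcf21 P30, 15 and 16 in Postn P7 and 32 and 25 in Tcf21 P7, and was called lower at 30 days (adjusted p = 0.031, called in 12 of 17 alternatives).

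Around Peg3, Mest and Ndn, 7 of 9 tested neighbours were called lower at 30 days, as the members were, and 1 higher. Over all tested genes 15.0% were called lower and 16.7% higher. Zim1, the maternally expressed zinc finger gene beside Peg3, had 1.39, 0.444 and 0.769 CPM in Tcf21 P30, 20.5 and 43.7 CPM in Postn P7 and 22.1 and 34.6 CPM in Tcf21 P7, and fell by 5.02 on the log2 scale against Tcf21 P7 (adjusted p = 0.00096). Usp29, paternally expressed, fell by 2.83 (adjusted p = 0.0063). Copg2, which encodes a coat protein subunit and ends opposite Mest, had 50.6, 33 and 31.9 CPM in Tcf21 P30, 227 and 237 CPM in Postn P7 and 336 and 343 CPM in Tcf21 P7. Klf14, a transcription factor gene of the same cluster, was down to 0, 1 and 2 reads in Tcf21 P30, against 56 and 66 reads in Postn P7 and 108 and 109 reads in Tcf21 P7. Beside Ndn, Magel2 had 1, 5 and 0 reads in Tcf21 P30, 24 and 29 in Postn P7 and 75 and 104 in Tcf21 P7, and both were called lower at 30 days (adjusted p = 0.00012 for Klf14 and 0.0013 for Magel2). Mkrn3 and Peg12 fell by 1.52 and 1.64 (adjusted p = 0.007 and 0.0064), Snrpn was not called, and Ube3a was called higher in Tcf21 P30 (0.46, adjusted p = 0.007) and in Postn P7 (0.64, adjusted p = 0.011).

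**Figure D4:**
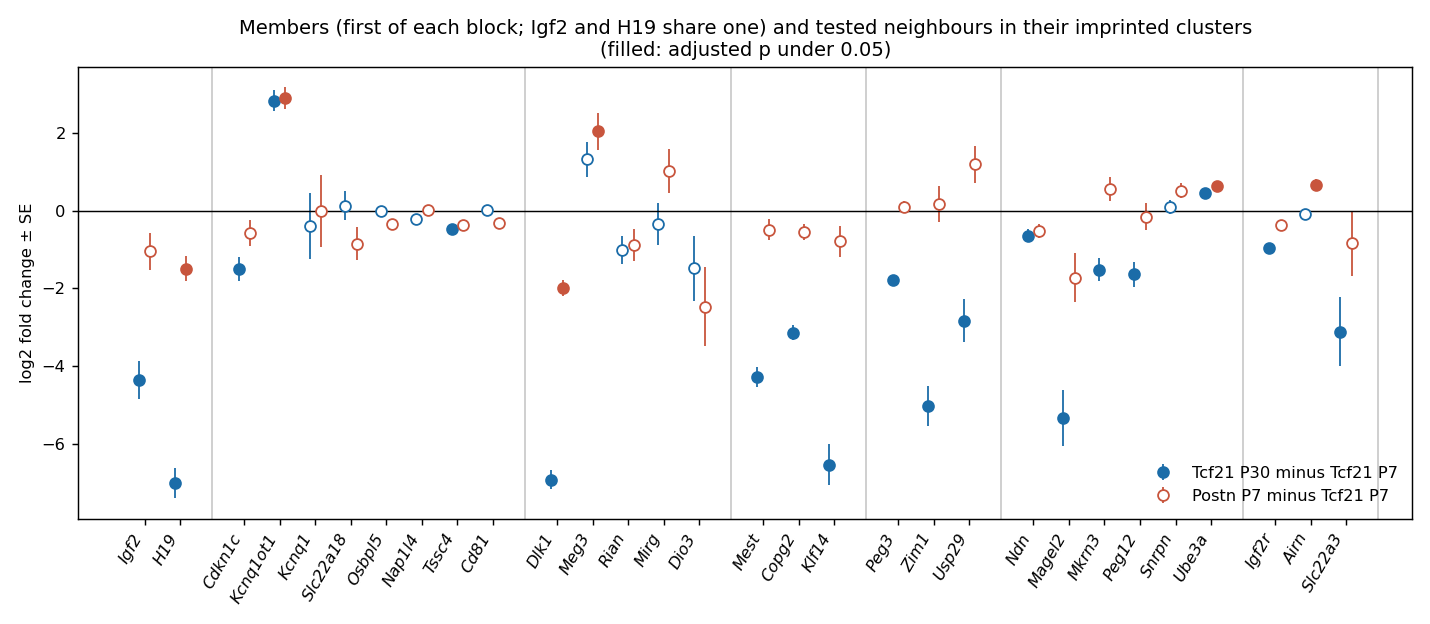
Log2 fold change with its SE for members (first in each block) and their tested cluster neighbours, for Tcf21 P30 minus Tcf21 P7 (blue) and Postn P7 minus Tcf21 P7 (red), filled where the adjusted p was under 0.05. Kcnq1ot1 lies near 2.83 and 2.90 beside Cdkn1c at −1.50 and −0.58. Fitted values of Klf14, Magel2 and Slc22a3 rest on 0 to 8 reads per Tcf21 P30 library and are not limits of their fold.

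Other imprinted genes were counted in 2 lists, and at 30 days 15.0% of all tested genes were called lower and 16.7% higher. Of 20 tested paternally expressed genes outside the 10, 7 were called lower and 3 higher in Tcf21 P30 than in Tcf21 P7, with a median log2 change of −0.47. Nnat, which encodes neuronatin, a small membrane protein, had 0.442, 0.698 and 0.604 CPM in Tcf21 P30, 16.1 and 12.4 CPM in Postn P7 and 9.21 and 9.87 CPM in Tcf21 P7 (log2 −4.02, adjusted p = 4.8e-05). Nespas, an antisense RNA of the Gnas locus, fell by 3.72 (adjusted p = 0.00013). Of 20 tested maternally expressed genes, 7 were called lower and 1 higher, with a median of −0.32. Gnas and H13, named here for their small changes of −0.33 and −0.31, kept their calls in 11 and 7 of 17 alternatives. Slc22a3 and Tssc4 kept theirs in 12 and 14. Between the lines at 7 days, 0 of the 20 paternally expressed genes were called lower in Postn P7 and 5 higher (median 0.40), and 0 of the 20 maternally expressed genes were called lower and 2 higher (median −0.23). Over all tested genes 5.49% were called lower and 6.52% higher. The 5 paternal calls held in 5 to 17 of 17 alternatives, and only that of Kcnq1ot1 held in all. The 2 maternal calls held in 10 (Meg3) and 14 (Ube3a).

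Partners of the IGF axis changed in both directions with age. Of 18 tested genes, 6 were called lower and 4 higher in Tcf21 P30 than in Tcf21 P7, with a median of −0.10. Over all tested genes 15.0% were called lower and 16.7% higher. Igf2bp1, which encodes an RNA-binding protein that binds Igf2 mRNA, had 0, 1 and 1 reads in Tcf21 P30, 106 and 54 in Postn P7 and 61 and 48 in Tcf21 P7, and was called lower at 30 days (adjusted p = 0.00027). Its relative Igf2bp3 fell by 2.78 on the log2 scale (adjusted p = 4.8e-05), and Igfbp6, which encodes a binding protein with preference for IGF2, was higher at 30 days by 2.57 (adjusted p = 3.6e-05). Igfbp2, another binding protein, was called lower (−2.79, adjusted p = 0.047), a call that held in 8 of 17 alternatives and was lost, among others, with library size alone, with limma-voom and with the replicate block. Igf1, the main growth ligand after birth and named here after its values were seen, had 257, 288 and 326 CPM in Tcf21 P30, 186 and 239 CPM in Postn P7 and 144 and 158 CPM in Tcf21 P7. It was higher at 30 days by 0.94 (adjusted p = 0.0022), the direction opposite to Igf2, and its receptor gene Igf1r, also looked up afterwards, fell by 0.80 (adjusted p = 0.011, called in 14 of 17 alternatives). At 7 days 2 of the 18 were called lower in Postn P7, Stc2 (−0.86) and Igfbp6 (−0.73), and 0 higher, and these calls held in 13 and 11 of 17 alternatives. Between the lines 5.49% of all tested genes were called lower and 6.52% higher.

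Of 17 tested genes that maintain imprints or write chromatin marks, 9 were called lower and 2 higher at 30 days, against 15.0% and 16.7% of all tested genes, with a median of −0.56. The calls of Setdb1 (lower) and Eed (higher) each held in 11 of 17 alternatives, and that of Zfp57 (lower) in 4. Uhrf1, which brings Dnmt1 to newly replicated DNA, fell by 2.44 (adjusted p = 0.0001), and Dnmt3a, a de novo DNA methyltransferase, by 1.45 (adjusted p = 5.4e-05). The H3K9 methyltransferase gene Ehmt2 fell by 1.11 (adjusted p = 0.0055), and Dnmt3l, a cofactor of de novo methylation, was higher by 2.60 (adjusted p = 0.004). At 7 days 0 of the 17 were called lower in Postn P7 and 3 higher, against 5.49% and 6.52% of all tested genes. Among the 3 was Zfp57, which binds methylated imprinting control regions. Zfp57 had 3.34, 3.11 and 3.96 CPM in Tcf21 P30, 17.9 and 17.5 CPM in Postn P7 and 5.46 and 5.08 CPM in Tcf21 P7, with a change of 1.75 between the 7-day groups (adjusted p = 0.0039). The other called genes were Tet2 (1.12, adjusted p = 0.0055) and Ezh2 (0.78, adjusted p = 0.039). The call of Ezh2 held in 8 of 17 alternatives, with a highest adjusted p of 0.24, and was lost with the replicate block and without both endothelial-rich libraries.

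Another list held genes known to decline in several organs as juvenile growth slows. Of 9 tested, 6 were called lower and 2 higher, with a median of −2.30. Over all tested genes 15.0% were called lower and 16.7% higher, with a median of 0.03. Igf2bp1 and Igf2bp3, both called lower, are in this list and in that of the IGF axis. Gpc3, which encodes a cell-surface proteoglycan that restrains body growth, had 100, 102 and 100 CPM in Tcf21 P30, 570 and 744 CPM in Postn P7 and 623 and 607 CPM in Tcf21 P7 (log2 −2.61, adjusted p = 1.9e-05). The transcription factor gene Sox11 fell by 3.54. Ezh1 and Mycn were called higher, by 1.04 and 1.12. Between the lines at 7 days 1 of the 9 was called, Ptk7, against 5.49% of all tested genes called lower and 6.52% higher. Ptk7 was lower in Postn P7, at a log2 change of −0.56. It kept its call in 9 of 17 alternatives, losing it with library size alone and with upper-quartile scaling.

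Markers of dividing cells and of other cell types are given beside the members. Of all tested genes, 15.0% were called lower and 16.7% higher between the ages, and 5.49% and 6.52% between the lines. Of 16 mitosis genes, 15 were called lower in Tcf21 P30 than in Tcf21 P7, with summed levels of 150, 117 and 127 CPM in Tcf21 P30, 659 and 564 CPM in Postn P7 and 426 and 419 CPM in Tcf21 P7. Between the lines at 7 days, 4 of the 16 were called higher in Postn P7 and 0 lower. Of 12 macrophage markers, 9 were called lower than in Tcf21 P7 both in Tcf21 P30 and in Postn P7, with a median of −1.59 each time. Of 10 epicardial and mesothelial markers 2 were called lower at 30 days, Aldh1a2 and Tbx18, and their sums were 171, 177 and 188 CPM in Tcf21 P30, 517 and 433 CPM in Postn P7 and 745 and 735 CPM in Tcf21 P7. Cardiomyocyte markers, of which 2 of 12 were called lower at 30 days, summed to 1330, 720 and 754 CPM in Tcf21 P30, 1570 and 665 CPM in Postn P7 and 1290 and 1130 CPM in Tcf21 P7. The part of any of these cells in the members' differences was not tested. Of the 10 epicardial and mesothelial markers, 5 (Upk3b, Upk1b, Msln, Lrrn4 and Bnc1) had 0 reads in Postn P7 replicate 2 and none was at 0 in replicate 1. The libraries richest in endothelial markers were Tcf21 P30 replicate 1 and Postn P7 replicate 1. With both left out together, all 10 members stayed lower between the ages. Their log2 changes then lay between −7.75 for H19 and −0.51 for Ndn, larger in size than with all libraries for H19, Igf2, Mest, Cdkn1c, Grb10 and Igf2r and smaller for Dlk1 (−6.75), Plagl1 (−2.96), Peg3 (−1.75) and Ndn.

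**Figure D5:**
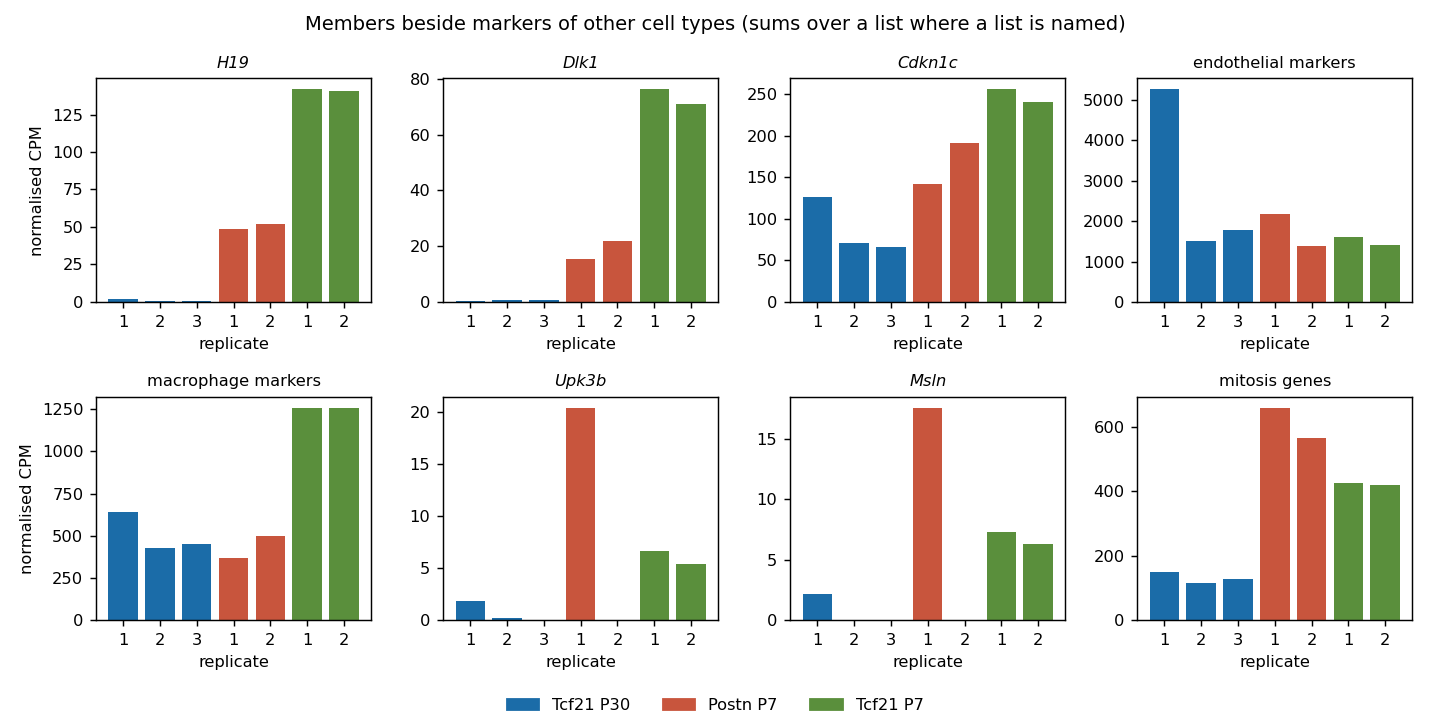
Normalised CPM per library of H19, Dlk1 and Cdkn1c beside markers of other cell types and mitosis genes (sums over a list, or single genes in italics), Tcf21 P30 at the left, then Postn P7 and Tcf21 P7. Upk3b and Msln are at 0 in Postn P7 replicate 2, endothelial markers reach 5270 CPM in Tcf21 P30 replicate 1, and macrophage markers stand at 1260 CPM in both Tcf21 P7 libraries.

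Patterns over the 7 libraries were compared by the root mean square difference of log2(CPM + 0.5), each gene centred on its mean, among 10630 genes with a mean of at least 10 CPM. The genes nearest to H19 were Dlk1 (0.62), Tnni1 (0.65), which encodes the slow skeletal troponin I of the immature heart, and Cthrc1 (0.71), which encodes a secreted collagen-associated protein. Nearest to Dlk1 were Cthrc1 (0.54), H19 (0.62) and Tnni1 (0.66). Mest and Igf2 were 0.38 apart, and Mest was nearest to Megf6 (0.22) and Adamts17 (0.3). Igf2 lay next to Rps3a3 (0.42) and Igf2os (0.47). Plagl1 was nearest to Nov, Col26a1 and Fbn2 (0.18, 0.2 and 0.24), and Igf2r to Abl1, Patz1 and Gtf2ird2 (0.07 each). Cdkn1c lay 0.08 from Gm44732, whose exons it shares on the opposite strand, and 0.18 and 0.19 from Coro1a and Gatm. The points are libraries of 3 groups, so these distances describe mainly the group means.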

How the data were processed

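Bulk RNA sequencing of sorted cardiac fibroblasts gave 7 libraries in 3 groups, as the labels name them. The authors deposited raw counts per gene symbol, with 1 column per library and no normalization. Reads were aligned with STAR to GRCm38, per the submitters' processing notes. The counting program, annotation release and strand setting are not given in the sources used here. Members were found by symbol, and 54106 of 54735 symbols matched GENCODE M21. All 7 libraries were fitted together in R 4.3.3 with edgeR 4.0.16: filterByExpr, TMM scaling, group means without covariates, the robust quasi-likelihood F-test, and Benjamini-Hochberg adjustment over 17636 genes. SE is the size of the log2 change over the square root of the F statistic. The test against 2-fold was glmTreat. DESeq2 1.42.0, limma 3.58.1 (voom), other scalings, filters and sample sets were alternatives. The scripts were first tested on simulated counts.

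The 10 members and the gene lists were chosen with earlier results of these data known. All members are named. From each other list up to 4 called genes with the largest change are named, and called cluster neighbours of a member. A gene named for another reason is introduced as one. Likeness was computed for 7 members.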

Additional observations from a re-analysis of the deposited data

How the results depend on the processing

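Across 17 alternatives, the 170 values of the 10 genes in Tcf21 P30 against Tcf21 P7 kept their direction, and 8 lost their call, all of Cdkn1c or Ndn. In Postn P7 against Tcf21 P7, 5 lost a call (all of H19), 28 gained one and 1 turned: Peg3 was at −0.15 without Postn P7 replicate 2, with up to 0.28 when another library was left out. In Tcf21 P30 against Postn P7, 5 gained a call (all of Cdkn1c) and 2 turned: Ndn was at 0.12 without Postn P7 replicate 2 and at 0.01 without Tcf21 P30 replicate 1, and as low as −0.31 when another was left out. Of the members, 2 were called between the lines at 7 days, and this count was 8 with no filter, 5 with DESeq2, 4 with limma-voom, 7 with only the 2 groups compared, 7 without both endothelial-rich libraries and 1 with the Tcf21 P7 libraries summed. Leaving out 1 library at a time gave 8 to 10 members called between the ages, 1 to 7 between the lines (1 without any 7-day library, 7 without Tcf21 P30 replicate 1) and 8 to 9 in Tcf21 P30 against Postn P7. Over all genes the calls were 5604, 2118 and 4276, with ranges of 2418 to 6063, 111 to 3250 and 2810 to 5072 when 1 library was left out. Between the lines, calls over all genes were 118 and 111 without Tcf21 P7 replicates 1 and 2, and 507 without Postn P7 replicate 2. With the Tcf21 P7 libraries summed, 2463 genes were called between the ages and 123 between the lines. Between the lines 3442 were called with no filter and 3750 without both endothelial-rich libraries. The causes were not tested beyond what each alternative leaves out.

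Scaling moved the split of all calls, though every member kept its direction under each scaling. Between the lines 1149 genes were higher and 969 lower, against 1741 and 472 with library size alone, which shifted the median of all genes by 0.114, and 1187 and 647 with upper-quartile factors. In Tcf21 P30 against Postn P7 they were 2206 and 2070, against 1725 and 2802 with library size alone (median shift −0.106) and 1928 and 2170 with upper-quartile factors.

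The labels give libraries equal replicate numbers without saying that a number marks a shared litter or day, and deviations of equally numbered libraries correlated at 0.04 to 0.312, so the numbers were not taken as pairs. With a replicate block, 9 members were called between the ages (not Cdkn1c), 3 between the lines and 8 in Tcf21 P30 against Postn P7, and 4553, 1556 and 3348 genes over all. The block takes up the third Tcf21 P30 library. With 2 or 3 libraries a group and 7 to 46 reads for H19, Igf2 and Dlk1 in each Tcf21 P30 library, depth limits how precisely their 30-day levels are known.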
